A study of Mus musculus with 4 samples.

Results

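Conventional type 1 dendritic cells (cDC1) are a rare class of antigen-presenting cell, and 266 of the 24561 barcodes that passed the cell filters were taken as cDC1 in hepatic nonparenchymal cells of 4 mice. They were chosen by transcript counts per barcode. A cDC1 held at least 2 unique molecular identifiers (UMIs) of Xcr1 and Clec9a together and at least 3 of the class II genes H2-Aa, H2-Ab1 and Cd74. It held at most 1 of the T and B cell genes Cd3d, Cd3e, Cd79a and Ms4a1, at most 2 of C1qa, C1qb and C1qc, and at most 1 of Siglech. The cell filters asked for at least 200 genes and at most 20% mitochondrial UMIs. The rule gave 92 cDC1 in the TAA library, 60 in TAA+C7.5, 87 in TAA+C30 and 27 in the control.

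cDC1 take up dying cells, carry the antigens onto MHC class I molecules by cross-presentation and prime CD8 T cells. Their development depends on the transcription factors Irf8, Batf3 and Id2. Xcr1 is the receptor for the chemokine Xcl1, which natural killer (NK) cells and CD8 T cells release, and Clec9a binds filamentous actin exposed on dead cells.

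All 4 mice were wild type C57B6 animals aged 18 to 20 weeks, with 1 mouse and 1 droplet library per group. In the TAA mouse thioacetamide, which injures hepatocytes and leads to fibrosis, was injected intraperitoneally over 12 weeks. Celecoxib was added by oral gavage from week 5 at 7.5 mg/kg in TAA+C7.5 and at 30 mg/kg in TAA+C30. Celecoxib is an inhibitor of cyclooxygenase-2, the product of Ptgs2. The control mouse received saline. Cells were freed with enzymes, erythrocytes were lysed, and a low-speed spin took out most hepatocytes. With 1 mouse per group no difference between treatments has a replicate check and no test between groups was made. Each comparison is one between 2 libraries, and treatment cannot be told apart from mouse, dissociation or library. Intervals are exact 95% intervals for counts, shares or ratios of counts and cover counting error only.

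The cDC1 were among the deeper barcodes. Their median depth was 15302 UMIs in TAA, 7230 in TAA+C7.5, 9406 in TAA+C30 and 16489 in the control, against medians of 4632, 1994, 3138 and 3396 over all kept barcodes in the same order. The summed cDC1 held 1452013, 434754, 818281 and 403037 UMIs. No barcode was a cDC1 in 2 libraries, although 7 to 13 kept barcodes were shared between each pair of libraries.

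The label was checked on genes that the rule did not use. Irf8 was found in 87 of 92 cDC1 in TAA, 55 of 60 in TAA+C7.5, 83 of 87 in TAA+C30 and 23 of 27 in the control. Wdfy4, which is needed for cross-presentation of cell-associated antigen, was found in 82, 57, 79 and 24 of these cells. In TAA, Irf8 was also found in 34.1% of type 2 conventional dendritic cells (cDC2) and 52.8% of B cells, so its presence in a barcode is not particular to cDC1. The share of cDC1 with a UMI of both Xcr1 and Clec9a, which chose the cells and support nothing, was 83.7%, 75%, 71.3% and 77.8%. Barcodes with exactly 2 such UMIs, just inside the threshold, numbered 9, 13, 15 and 3, and barcodes with 1 UMI that met the other terms, just outside it, numbered 44, 15, 37 and 19. CPM are UMIs per 1000000 UMIs of the barcodes named, or of the summed cDC1 where none are named. Naaa, a lysosomal acid amidase, stood at 128, 392, 1021 and 235 CPM just inside. It stood at 87.0, 289, 110 and 188 CPM just outside, against 1035, 1005, 987 and 1311 CPM in barcodes with 4 or more. In TAA, TAA+C7.5 and the control the barcodes just inside were thus low in Naaa, while in TAA+C30 they were level with the rest. Other genes did not all follow Naaa in TAA+C7.5. Just inside, against 4 or more, Wdfy4 stood at 473 against 816 CPM and Irf8 at 1242 against 1658 CPM. The cystatin gene Cst3 was near level there (13733 against 14690 CPM) and Batf3 was higher (175.5 against 145.9 CPM). Barcodes with 3 Xcr1 and Clec9a UMIs held Naaa at 310, 963, 737 and 120 CPM. In the control the 3 barcodes just inside held Irf8 at 0 and Cd209a, a cDC2 marker, at 941 CPM, against 1920 and 17.2 CPM in control barcodes with 4 or more. The cDC2 markers summed to 147, 98.9, 122 and 241 CPM in cDC1, and to 135, 98.5, 114 and 266 CPM without mixed barcodes. Of these markers Cd209a stood at 9.68 CPM in TAA and 72.1 CPM in the control without mixed barcodes, a log2 ratio of -2.06, and Cd7 had a log2 ratio of -1.67. Their part in the genes that were higher in the control, given below, was not tested.

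RNA of other cell types was counted in the cDC1, at high levels in a few barcodes and at low levels in many. The endothelial markers Clec4g, Stab2, Kdr, Ptprb, Cdh5 and Egfl7, of which all 6 were found in TAA and in the control, summed to 620 CPM in TAA cDC1, 4.60 in TAA+C7.5, 2.44 in TAA+C30 and 551 in the control, and 1 barcode held 53.4% of these UMIs in TAA and 58.1% in the control. Neutrophil markers (S100a8, S100a9, Csf3r, Retnlg and Cxcr2) summed to 433, 23, 1528 and 17.4 CPM, with 87.1% of the UMIs in 1 barcode in TAA and 59.8% in 1 barcode in TAA+C30. In all, 4, 1, 4 and 2 cDC1 also met the rule of endothelial cells, neutrophils, T cells, NK cells or cholangiocytes. They are called mixed barcodes here, and results that rest on them are also given without them. S100a9, a neutrophil calprotectin subunit, was found in 32 of 92, 6 of 60, 50 of 87 and 3 of 27 cDC1, and without mixed barcodes still in 30, 6, 47 and 3. Hbb-bs was found in 9, 4, 12 and 17 cDC1, and Alb in 22, 3, 3 and 9. Without mixed barcodes the endothelial markers summed to 11.9, 4.69, 2.54 and 74.9 CPM and the neutrophil markers to 58.8, 23.5, 200.7 and 19.4 CPM. Markers of T cells reached 2.07, 13.8, 2.44 and 2.48 CPM, and those of B cells 5.51, 11.5, 8.56 and 9.93 CPM. Fibroblast markers were at 0 in both celecoxib libraries, at 0.689 CPM in TAA and at 4.96 CPM in the control. Hepatocyte markers, which freed RNA can carry, summed to 28.9, 11.5, 7.33 and 89.3 CPM, and the haemoglobin genes Hba-a1, Hba-a2, Hbb-bs and Hbb-bt to 17.2, 13.8, 19.6 and 186 CPM. The monocyte rule was met by 55, 28, 48 and 19 cDC1. Ccr2, the chemokine receptor that is part of it, was found in 78, 46, 76 and 25 cDC1.

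cDC1 made up a larger share of the TAA suspension than of the control suspension, and between 21.9% and 23.9% of dendritic cells in all 4. They were 1.41% (1.14 to 1.73) of kept barcodes in TAA, 0.986% (0.754 to 1.27) in TAA+C7.5, 1.41% (1.13 to 1.73) in TAA+C30 and 0.467% (0.308 to 0.678) in the control. The TAA share was 3.03 times the control share (1.95 to 4.84), the TAA+C7.5 share was 0.698 times the TAA share (0.496 to 0.977), and the TAA+C30 share was 0.997 times the TAA share (0.735 to 1.35). The rule asks for a fixed UMI count whatever the depth of a barcode, and depth differed between libraries. The median sum of Xcr1 and Clec9a UMIs per cDC1 was 9 in TAA, 4 in TAA+C7.5, 4 in TAA+C30 and 11 in the control. Endothelial barcodes took up 2933 of the 5788 kept barcodes of the control, against 302 of 6512 in TAA. When barcodes that met the endothelial, hepatocyte or cholangiocyte rule were taken out of the denominator, the shares were 1.57%, 1.03%, 1.44% and 1.01%, and TAA was 1.54 times the control with an interval that reached 1 (0.996 to 2.47). TAA+C7.5 was then 0.658 times TAA (0.467 to 0.921). Without the class II minimum the rule gave 94, 60, 89 and 79 barcodes, and the share of kept barcodes in TAA was 1.06 times that in the control. All 52 barcodes that this added in the control met the endothelial rule, and they held 118 Clec9a UMIs and 0 Xcr1 UMIs.

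Among cDC1, cDC2 and plasmacytoid dendritic cells (pDC) together, the cDC1 share was 22.5% (18.5 to 26.9) in TAA, 22.1% (17.3 to 27.6) in TAA+C7.5, 21.9% (17.9 to 26.3) in TAA+C30 and 23.9% (16.4 to 32.8) in the control. These 4 intervals overlap. The cDC2 share of kept barcodes was 3.19%, 0.904%, 2.27% and 0.674%, and the pDC share was 1.67%, 2.57%, 2.77% and 0.812%. In TAA+C7.5 the cDC2 share was thus 0.283 times that of TAA (0.206 to 0.383) and the pDC share 1.53 times (1.19 to 1.97). Shares describe the suspensions, and cells lost in dissociation cannot be told apart from cells absent in the liver.

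**Figure D1:**
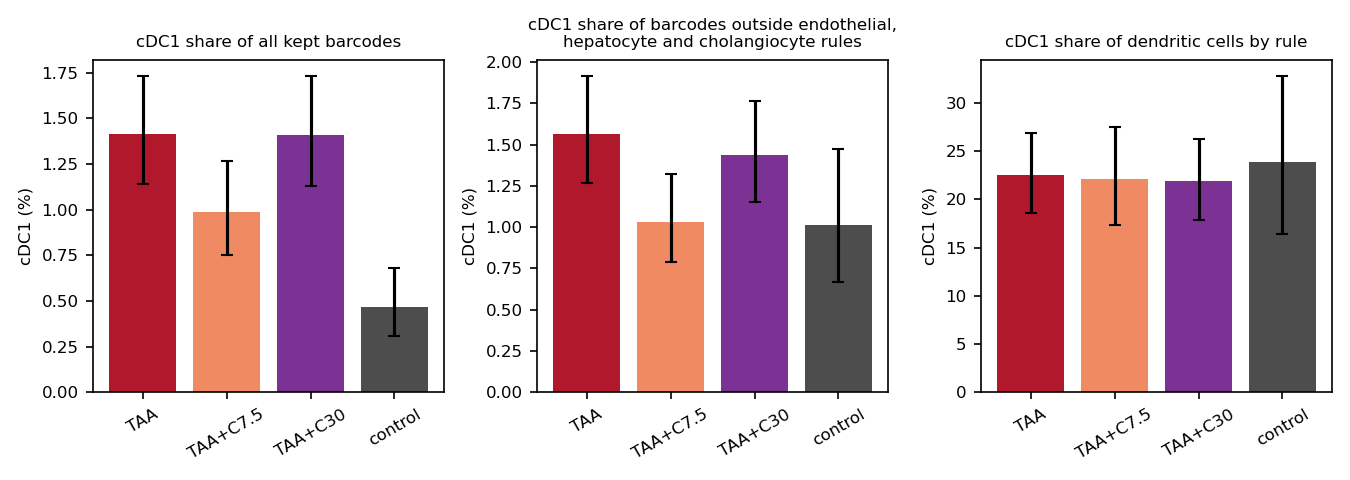
Share of cDC1 in percent (vertical axes) of all kept barcodes, of barcodes outside the endothelial, hepatocyte and cholangiocyte rules, and of dendritic cells by rule, in the TAA, TAA+C7.5, TAA+C30 and control libraries. Bars are shares and lines are exact 95% intervals for counting error. The control bar is lowest at 0.467% of all kept barcodes, and the 4 bars lie between 21.9% and 23.9% of dendritic cells.

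The cDC1 were set beside the cDC2 of the same library, which were chosen by Cd209a and Clec10a. Both classes were cut on transcripts of their own, so this describes what the chosen cells carry and is no test. Of 4355 genes measured in all 4 libraries, 91 (2.09%) were at least 2-fold higher and 124 (2.85%) at least 2-fold lower in cDC1 in each of the 4. Of 25 measured genes of a list of 30 cDC1 identity genes, 18 were higher in all 4 and 0 lower, with a median log2 ratio of 2.82, against 0.03 over all measured genes. Of the 5 measured genes of the cDC2 marker list, 4 were lower and 0 higher. Ratios here and below are log2 ratios of CPM with 10 CPM added to each side, and a gene is counted as higher or lower from 2-fold.

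Irf8 had the highest median ratio over the 4 libraries, 4.73, with 1499 CPM in cDC1 against 46.6 CPM in cDC2 of TAA, 1585 against 50.1 in TAA+C7.5, 1705 against 63.6 in TAA+C30 and 1772 against 20.2 in the control. It was followed by P2ry14 (4.48), a receptor for UDP-sugars, Ppt1 (4.15), a lysosomal thioesterase, Ifi205 (4.14), an interferon-inducible p200 family gene, and Rab7b (4.07), a small GTPase of endosomes. Cadm1 (3.57), an adhesion molecule that binds Crtam on T and NK cells, Tlr3 (3.41), the endosomal receptor for double-stranded RNA, Naaa (3.39), Cd24a (3.35), Itgae (3.28), the alpha chain that pairs with the beta 7 integrin, Nek6 (3.07) and Trim35 (3.03) completed the 12 highest. The 12 lowest, named after their values were seen, were led by Tmem176b (-3.63), S100a4 (-3.56), Tmem176a (-3.46) and the chemokine Ccl9 (-3.31). Cybb, the catalytic subunit of the phagocyte NADPH oxidase (-3.18), Ms4a4c and Plaur (both -3.15), Tnip3 (-3.11), the integrin Itgam (-3.09), Ptgs2 (-2.96), Arl5c (-2.94) and Clec7a, the beta-glucan receptor (-2.91), followed.

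The gene of the celecoxib target, Ptgs2, was low in cDC1. It stood at 12.4 CPM in cDC1 against 202 in cDC2 of TAA, 27.6 against 229 in TAA+C7.5, 28.1 against 199 in TAA+C30 and 42.2 against 738 in the control. It was found in 9, 3, 4 and 2 cDC1. Without mixed barcodes Ptgs2 stood at 11.9, 28.15, 3.81 and 47.1 CPM in cDC1, so most of its TAA+C30 level came from them.

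**Figure D2:**
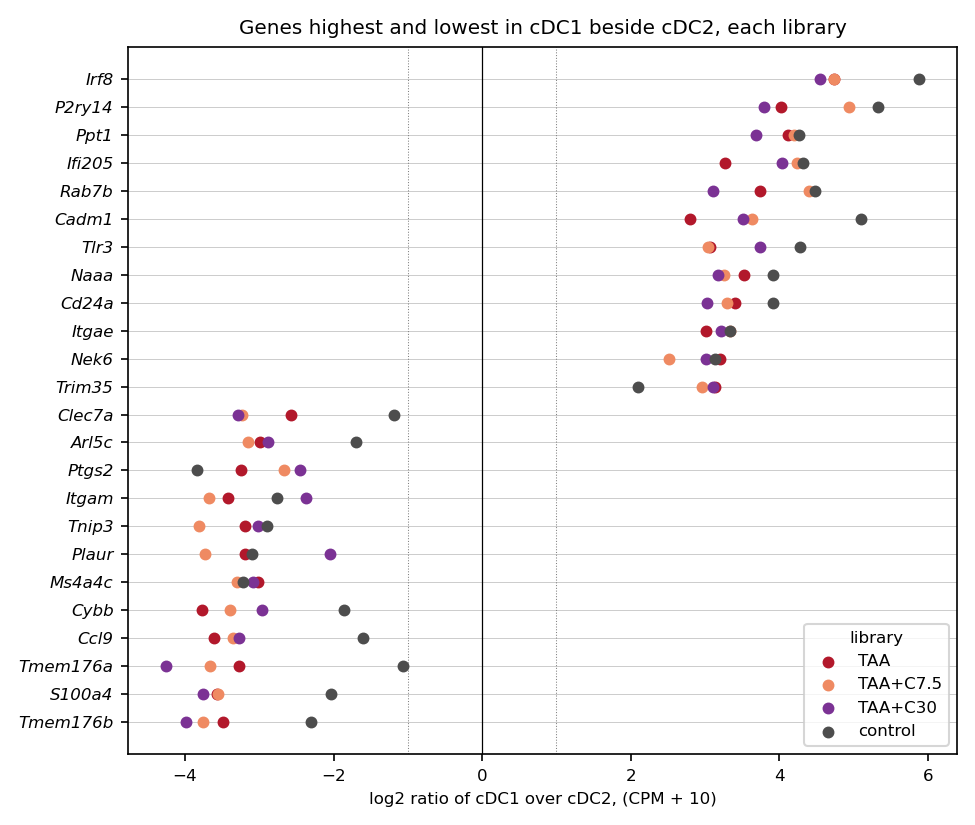
Log2 ratio of cDC1 over cDC2 (horizontal axis, CPM with 10 added) for 12 genes at either end of the ranking by median ratio, 1 point per library. In each of the 4 libraries all 12 upper genes lie above 2.10 and all 12 lower genes below -1.06, and the control point of Irf8 is the highest.

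In TAA against control, 205 of 7521 measured genes (2.73%) were higher and 191 (2.54%) lower in cDC1. A measured gene had at least 20 UMIs in the cDC1 of both libraries together. Genes of the interferon response list were higher in TAA more often than that: of 23 measured of 27, 13 were higher and 1 lower, with a median log2 ratio of 1.16, against -0.04 over all measured genes. Without mixed barcodes 162 genes were higher and 211 lower over all genes, and of the list 10 were higher and 2 lower of 22 measured, with a median of 0.85. The list was compiled with earlier results of these data known, so the count is a description.

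Irf7, the transcription factor that amplifies type I interferon production, stood at 273 CPM in TAA, 288 in TAA+C7.5, 243 in TAA+C30 and 44.7 in the control. It was high in each of the 3 thioacetamide libraries, where 69 of 92, 40 of 60 and 59 of 87 cDC1 held it, and low in the control, where 7 of 27 did. TAA was 6.12 times the control (3.82 to 10.4), a log2 ratio of 2.37, or 2.32 without mixed barcodes.

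Isg15, a ubiquitin-like protein that interferon induces, stood at 180 CPM in TAA, 85.1 in TAA+C7.5, 103 in TAA+C30 and 27.3 in the control. TAA was 6.61 times the control (3.63 to 13.4), a log2 ratio of 2.35, or 2.23 without mixed barcodes. Unlike Irf7, Isg15 was lower with either dose than with TAA alone, by log2 ratios of -1.002 at 7.5 mg/kg and -0.76 at 30 mg/kg. Of the pair, the ratio at 7.5 mg/kg alone passed 2-fold.

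Ifitm3, a membrane protein that blocks virus entry, stood at 1419, 987, 1563 and 432 CPM in TAA, TAA+C7.5, TAA+C30 and control, and TAA was 3.29 times the control (2.81 to 3.86). Bst2, a tether of budding virus, stood at 378, 366, 379 and 161 CPM, and TAA was 2.34 times the control (1.81 to 3.08). Zbp1, a sensor of Z-form nucleic acid, stood at 64.7, 50.6, 58.7 and 9.93 CPM. These 3 genes were high in the 3 thioacetamide libraries and low in the control. Usp18, which removes Isg15 from proteins, had 40.6, 39.1, 39.1 and 12.4 CPM, and the antiviral enzyme Rsad2 had 46.1, 25.3, 17.1 and 7.44 CPM. Only 3 UMIs of Rsad2 were counted in the control, and the ratio of TAA to control was 6.20 with a wide interval (2.03 to 30.8). The control levels of Zbp1 and Usp18 also rest on few UMIs and are imprecise.

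Not every member followed. Gbp2, an interferon-inducible GTPase, was the member counted as lower, with 15.1, 18.4, 3.67 and 42.2 CPM and a log2 ratio of -1.05. Irf1 was counted as higher in TAA with a log2 ratio of 1.25, but this was 0.05 without the mixed barcodes. Iigp1, an immunity-related GTPase, had 116 CPM in TAA that came from 3 cells, and 0.745 CPM there without mixed barcodes. The endothelial markers stood at 11.9 CPM in TAA without those barcodes, against 620 CPM with them. Mixed barcodes were chosen in part by the endothelial rule, so that fall follows from the choice. The source of the Irf1 and Iigp1 UMIs was not tested.

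Summed per cell, the list reached a median of 2492 CPM in TAA (lowest 120, highest 11772), 1765 in TAA+C7.5 (0 to 13993), 2478 in TAA+C30 (280 to 14382) and 902 in the control (210 to 6643). The ranges overlap, and the median is lowest in the control. Over the 26 measured members in cDC2 the median log2 ratio of TAA against control was 1.08, and over the 19 measured in pDC it was 0.71, so the list was also higher in TAA in those classes.

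**Figure D3:**
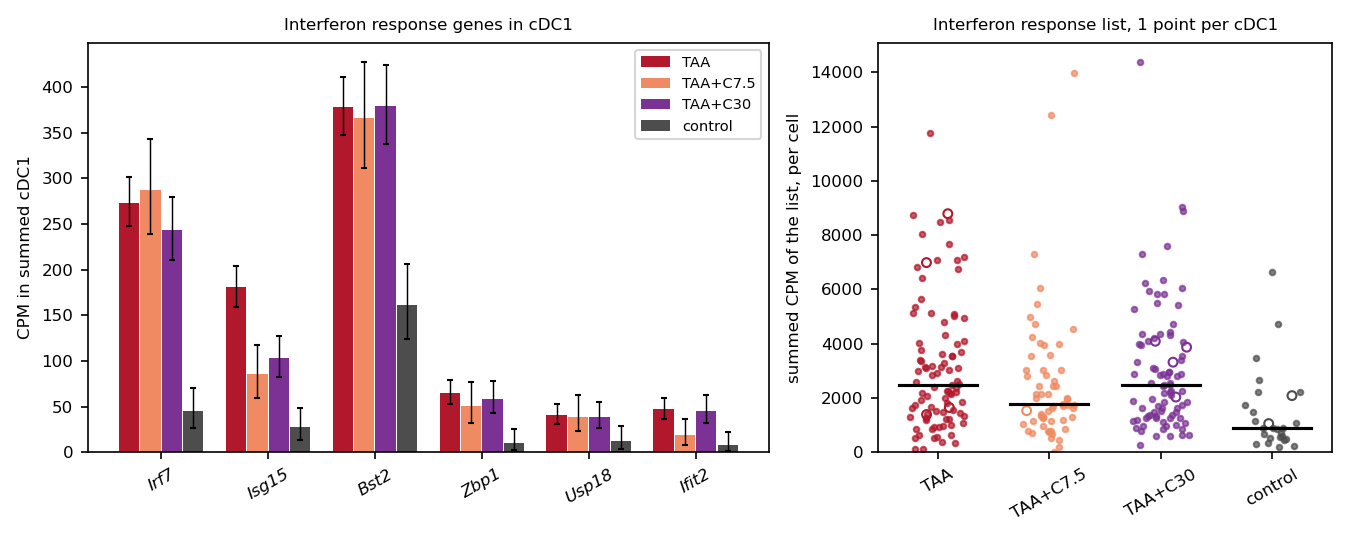
Left, CPM in summed cDC1 (vertical axis) of 6 interferon response genes in the TAA, TAA+C7.5, TAA+C30 and control libraries, with exact 95% counting intervals. Right, summed CPM of the list in each cDC1, with bars at the medians (2492, 1765, 2478 and 902) and open circles for mixed barcodes. Irf7, Bst2 and Zbp1 are low in the control only, and Isg15 is highest in TAA.

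Type I interferon acts through transcription factors that bind a short element in target promoters. The 250 bases before each start site in the RefSeq promoters (build GRCm38.p6) were searched on both strands for GAAANNGAAA, written TTTCNNTTTC on the other strand, and matches may overlap. The pattern was found in 12 of the 21 interferon list genes with a promoter there (57.1%), against 936 of 27025 genes (3.46%) and 978 of 32851 promoters (2.98%). It was found in 5 of 11 members that were higher in TAA (45.5%) and in 4 of 7 other measured members (57.1%), so it does not separate them. Shown are 150 bases that end at the start site, 5′ to 3′ on the gene's own strand, with matches in capitals, of Isg15 (3 matches), Bst2 (2), Rsad2 (1) and Irf7 (0), which were all higher in TAA. A match is a description of the letters.
Isg15, chr4:156200819-156200968, minus strand: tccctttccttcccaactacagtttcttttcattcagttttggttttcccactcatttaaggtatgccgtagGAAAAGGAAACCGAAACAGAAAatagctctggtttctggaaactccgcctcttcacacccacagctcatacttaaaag
Bst2, chr8:71537473-71537622, minus strand: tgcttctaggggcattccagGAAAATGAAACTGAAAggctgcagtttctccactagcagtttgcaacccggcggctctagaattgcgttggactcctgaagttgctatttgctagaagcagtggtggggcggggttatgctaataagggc
Rsad2, chr12:26456453-26456602, minus strand: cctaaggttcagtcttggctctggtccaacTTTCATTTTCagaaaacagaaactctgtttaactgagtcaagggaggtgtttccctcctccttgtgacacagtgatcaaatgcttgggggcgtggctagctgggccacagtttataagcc
Irf7, chr7:141266425-141266574, minus strand: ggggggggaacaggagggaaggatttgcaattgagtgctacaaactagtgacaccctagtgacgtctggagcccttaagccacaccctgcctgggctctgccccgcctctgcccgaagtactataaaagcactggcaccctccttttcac

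Outside the list, the rule for named genes gave the mitochondrial outer membrane protein Tspo, the orphan nuclear receptor Nr4a3 and the fatty acid oxidation enzyme Acadl among the 8 highest in TAA against control, beside Irf7, Isg15, Ifi27l2a, Ly6a and Ifitm3. Ifi27l2a, an interferon-inducible gene, had 573, 334, 456 and 117 CPM. Ly6a, which encodes the surface protein Sca-1, had 355, 138, 227 and 69.5 CPM and was lower in TAA+C7.5 than in TAA by a log2 ratio of -1.30. Tspo had 648, 474, 719 and 194 CPM, Nr4a3 had 261, 278, 187 and 74.4 CPM, and Acadl had 267, 193, 270 and 81.9 CPM. Each was highest in a thioacetamide library and lowest in the control, and TAA was 3.35 (2.66 to 4.28), 3.51 (2.42 to 5.27) and 3.26 (2.28 to 4.80) times the control for Tspo, Nr4a3 and Acadl.

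The 8 lowest in TAA against control were Tagap, Cxcr4, Zfhx3, Pik3r1, Hspa1b, Tgfbi, Prkcd and Mir6236. Cxcr4, the receptor for the chemokine Cxcl12, had 93.0, 189, 222 and 347 CPM. It was lowest in TAA, highest in the control, and between them in both celecoxib libraries. Its log2 ratio was -1.80 in TAA against control, 0.95 in TAA+C7.5 against TAA and 1.17 in TAA+C30 against TAA. Tagap, a GTPase-activating protein of activated lymphocytes, had 15.2, 20.7, 44.0 and 117 CPM, with 8 of 27 control cells holding it. Pik3r1, a regulatory subunit of phosphoinositide 3-kinase, had 123, 184, 154 and 400 CPM, the transcription factor Zfhx3 had 28.2, 13.8, 20.8 and 122 CPM, and the kinase Prkcd had 84.7, 154, 121 and 266 CPM. All 3 were highest in the control, where 23, 16 and 22 of 27 cells held them.

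Cxcr4 is also on the glucocorticoid response list, of which 1 measured gene was higher and 4 lower of 10 in TAA against control, with a median of -0.55 (0 and 4 of 9, and -0.72, without mixed barcodes). The shares over all measured genes were 2.73% higher and 2.54% lower. Tsc22d3, a glucocorticoid-induced leucine zipper gene, had 110, 225, 183 and 280 CPM, and Ddit4, a stress-induced inhibitor of mTOR signalling, had 13.8, 11.5, 9.78 and 59.6 CPM. Txnip, a thioredoxin-binding protein, had 85.4, 71.3, 35.4 and 199 CPM. Sgk1, a kinase that ion transport depends on, was the member counted as higher, at 273, 147, 153 and 122 CPM, but its log2 ratio of 1.10 was 0.91 without mixed barcodes. The median over the 10 measured in cDC2 was -0.92.

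Most genes of cDC1 identity lay within 2-fold between TAA and control, on the lower side in TAA. Of 30 measured, 1 was higher and 3 lower, against 2.73% and 2.54% of all measured genes, and the median was -0.32, against -0.04 over all. Batf3 had 143, 145, 156 and 146 CPM in TAA, TAA+C7.5, TAA+C30 and control, and Cst3, the cystatin that is among the most abundant transcripts of dendritic cells, had 14977, 14231, 15372 and 13966 CPM. Both were level across the 4 libraries. The 3 lower members were Tlr3 (129, 150, 138 and 315 CPM), Zbtb46, a repressor found in conventional dendritic cells (37.9, 43.7, 37.9 and 104 CPM), and Cadm1 (154, 230, 165 and 333 CPM). All 3 were highest in the control, and neither dose of celecoxib moved them past 2-fold from TAA. Without mixed barcodes the log2 ratios of TAA against control were -1.18 for Tlr3, -1.40 for Zbtb46 and -0.78 for Cadm1, which is then inside 2-fold. Laptm4b, a lysosomal membrane protein, was the higher member at 42.7, 36.8, 37.9 and 7.44 CPM, with 3 UMIs in the control and a ratio of 5.74 (1.87 to 28.6).

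Most antigen presentation genes lay within 2-fold. Over all measured genes, 2.73% were higher and 2.54% lower in TAA against control. The shares were 0.713% and 4.03% in TAA+C7.5 against TAA, and 0.596% and 3.7% in TAA+C30 against TAA. Of 23 class I presentation and cross-presentation genes, 0 were higher and 1 lower in TAA against control, with a median of 0.02, and 0 passed 2-fold in either direction with celecoxib. The lower gene was Cybb, at 45.5, 59.8, 80.7 and 161 CPM, which is also a cDC2 gene here; in the control 6 of 27 cells held it. Wdfy4 had 599, 752, 627 and 819 CPM, and the immunoproteasome subunit Psmb8 had 1058, 980, 1069 and 615 CPM. Of 12 measured class II genes, Ciita alone was lower in TAA against control and 0 were higher. Ciita, the transcriptional master regulator of class II genes, had 181, 177, 200.4 and 407 CPM, and TAA was 0.445 times the control (0.365 to 0.544). H2-Eb1, a class II chain that the rule did not use, had 8135, 8324, 8569 and 6059 CPM, so it was not lower where Ciita was. With celecoxib against TAA, 2 (TAA+C7.5) and 1 (TAA+C30) class II genes were lower, Ctsl and Lgmn at 7.5 mg/kg and Ctsl at 30 mg/kg, and 0 without mixed barcodes.

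Ccr7 and some other maturation genes were found in few cells. Of 23 measured members of the maturation and costimulation list, 7 were higher and 0 lower in TAA against control, with a median of 0.41, and 6 of 22 without mixed barcodes, with a median of 0.29. Among all measured genes 2.73% were higher and 2.54% lower. Ccr7, the receptor that leads dendritic cells to lymph nodes, had 154, 143, 145 and 24.8 CPM, in 8, 5, 6 and 2 cells. Ccl5, a chemokine for T cells and monocytes, had 90.9, 48.3, 75.8 and 4.96 CPM. Cd63, a tetraspanin of late endosomes, had 35.1, 29.9, 15.9 and 0 CPM, and TAA was at least 4.72-fold higher than the control set at 3 counts over the summed cDC1. These genes were low in the control, where the 27 cDC1 leave few cells in which to find them. In TAA 36 of the 51 Cd63 UMIs lay in the 5 cDC1 with at least 3 Ccr7 UMIs, so the Cd63 bound rests on few cells. Cd83 and Cd86, which mature dendritic cells carry, had 840, 842, 841 and 561 CPM and 196, 214, 176 and 169 CPM, and neither passed 2-fold.

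A cut of at least 3 Ccr7 UMIs, chosen after the values were seen, set off 5 of 92 cDC1 in TAA, 4 of 60 in TAA+C7.5, 5 of 87 in TAA+C30 and 1 of 27 in the control. These cells held 221 of 224, 61 of 62, 117 of 119 and 9 of 10 Ccr7 UMIs. They also held 109 of 112, 37 of 41, 54 of 58 and 0 of 2 UMIs of Il12b, which encodes the p40 chain of interleukin 12, although a single cell held 90.2%, 90.2% and 82.8% of the Il12b UMIs in the 3 thioacetamide libraries. Of Ccl22, a chemokine for regulatory T cells, they held 43 of 49, 34 of 49, 25 of 27 and 0 of 12 UMIs. Other genes were not concentrated in them in every library. They held 28 of 157, 24 of 39, 8 of 22 and 0 of 15 UMIs of Marcksl1, and 49 of 301, 121 of 126, 41 of 88 and 0 of 69 of Cxcl9. Of Ccl5 they held 99 of 132, 2 of 21, 39 of 62 and 0 of 2, and of Ccl17, a chemokine for Ccr4 cells, 0 of 17, 48 of 51, 0 of 1 and 0 of 10. Wdfy4 stood at 199 CPM in them against 621 in the other cDC1 of TAA, 441 against 777 in TAA+C7.5, 373 against 643 in TAA+C30 and 602 against 830 in the control. The rule asks for Xcr1 or Clec9a, so cells with neither are not counted here. Ccr7 was found in 28.4%, 18.2%, 20% and 15.4% of cDC2.

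Cytokine and chemokine genes were mixed. Of 16 measured in TAA against control, 2 were higher (Il12b and Cxcl10) and 2 lower (Ccl4 and Tnf), with a median of -0.44 (2 and 1 of 15, and -0.47, without mixed barcodes). All measured genes had shares of 2.73% higher and 2.54% lower. Cxcl10, an interferon-induced chemokine for Cxcr3 cells, had 147, 23.0, 1.22 and 7.44 CPM, with 51.2% of the TAA UMIs in 1 cell, and its log2 ratio of 3.17 in TAA against control was 1.06 without mixed barcodes. Cxcl9, which acts on the same receptor, had 207, 290, 108 and 171 CPM. Ccl4 had 469, 329, 893 and 968 CPM, lower in TAA and TAA+C7.5 than in TAA+C30 and control. Il1b had 1064, 1001, 1220 and 690 CPM and did not pass 2-fold. Il12a, the partner chain of Il12b, had 0 UMIs in each library.

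Several proliferation genes were lower in TAA+C30 cDC1 than in TAA cDC1. In TAA+C30 against TAA, 47 of 7882 measured genes (0.596%) were higher and 292 (3.7%) lower, or 40 and 94 without mixed barcodes. Of 23 cell cycle genes 10 were lower and 0 higher, with a median of -0.93, against -0.06 over all measured genes. Without mixed barcodes 12 were lower, with a median of -1.02. The 10 were Mki67, Top2a, Birc5, Cdk1, Ccna2, Stmn1, Rrm2, Rrm1, Nusap1 and Tuba1b.

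Mki67, a marker of dividing cells, had 132, 122, 23.2 and 166 CPM in TAA, TAA+C7.5, TAA+C30 and control. Only TAA+C30 was low. TAA+C30 was 0.177 times TAA (0.104 to 0.283), a log2 ratio of -2.09, or -2.16 without mixed barcodes. Top2a, the DNA topoisomerase of dividing cells, had 163, 131, 30.6 and 144 CPM, and TAA+C30 was 0.188 times TAA (0.119 to 0.284). Stmn1, a microtubule regulator, had 266, 143, 81.9 and 184 CPM, and the histone gene Hist1h2ap had 218, 69.0, 42.8 and 253 CPM. Histone genes of a cluster are near-identical, and how the counting split their reads is uncertain. In TAA+C7.5 against TAA, Hist1h2ap passed 2-fold, at a log2 ratio of -1.53, while Stmn1 did not, at -0.85. Pcna, the DNA polymerase clamp, had 130, 106, 132 and 186 CPM and was not lower in TAA+C30 than in TAA.

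Cells with at least 3 UMIs of Mki67, Top2a, Birc5 and Cdk1 together numbered 18 of 92, 7 of 60, 6 of 87 and 4 of 27, and held 94.8%, 96.2%, 79.0% (78.95) and 98.5% of the Mki67 UMIs. The cut uses Mki67 itself and is not independent of its level. To set depths equal, each cell was thinned to 1000 UMIs, which left out 1 control cDC1 with fewer. The share with a UMI of these 4 genes was then 16.3% (9.42 to 25.5) in TAA, 10% (3.76 to 20.5) in TAA+C7.5, 2.30% (0.280 to 8.06) in TAA+C30 and 15.4% (4.36 to 34.9) in the control. Before thinning it was 38.04%, 16.7%, 16.1% and 25.9%. In B cells thinned alike, the background, it was 1.59%, 2.06%, 1.02% and 1.05%. The interval of TAA+C30 lies below that of TAA and overlaps those of TAA+C7.5 and the control. Wdfy4 stood at 624 CPM in the cycling cells against 591 in the other cDC1 of TAA, and at 870 against 729, 653 against 624 and 822 against 818 CPM in TAA+C7.5, TAA+C30 and control. In cDC2 the share of cells after thinning was 10.1%, 3.70%, 5% and 17.9% (17.95), and the median of the list in TAA+C30 against TAA was -0.87, close to that in cDC1.

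**Figure D4:**
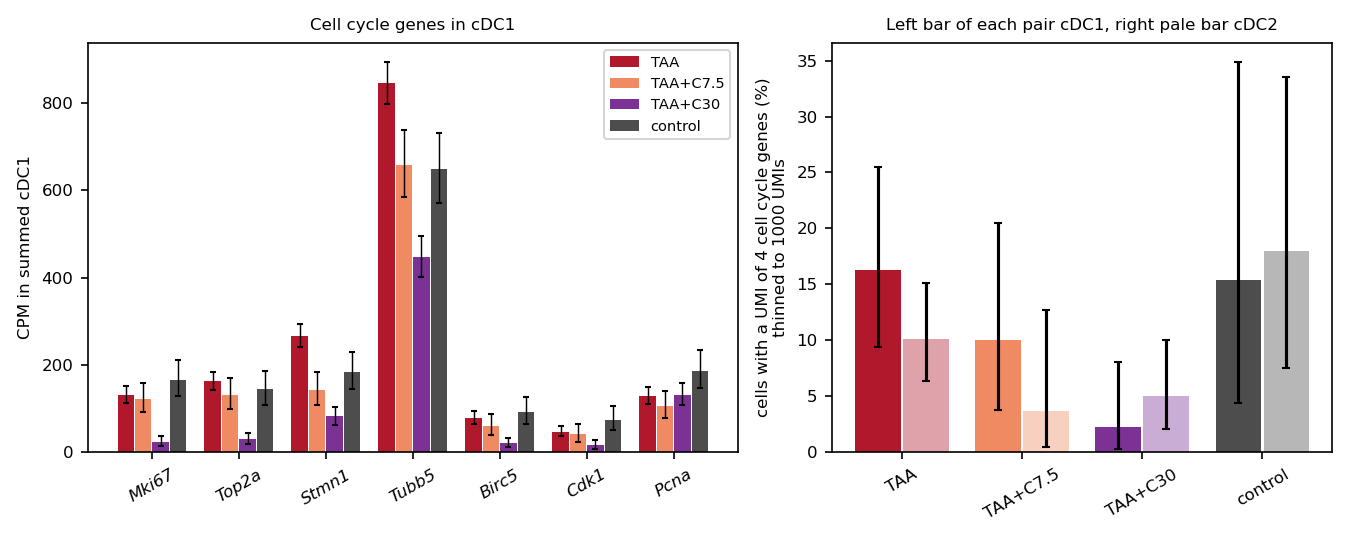
Left, CPM in summed cDC1 (vertical axis) of 7 cell cycle genes in the 4 libraries, with exact 95% counting intervals. Right, share in percent of cDC1 (left bar of each pair) and cDC2 (pale right bar) with a UMI of Mki67, Top2a, Birc5 or Cdk1 after thinning to 1000 UMIs. Mki67 and Top2a are lowest in TAA+C30, where 2.30% of cDC1 held a UMI, while Pcna is not.

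Heat shock genes led the other direction. The 8 highest in TAA+C30 against TAA were Hspa1a, Hspa1b, Hsph1, Cxcr4, Tgfbi, Dnajb1, Hspd1 and Hsp90aa1, of which the last 2 lay just inside 2-fold. Hspa1a, an inducible Hsp70 chaperone, had 634, 1428, 2344 and 1335 CPM in TAA, TAA+C7.5, TAA+C30 and control, and Hspa1b, its near-identical neighbour, had 428, 975, 1529 and 1332 CPM. Both were lowest in TAA and highest in TAA+C30. How the counting split reads between the 2 genes is uncertain. The ratio of TAA+C30 to TAA was 3.70 (3.42 to 4.01) for Hspa1a and 3.57 (3.24 to 3.93) for Hspa1b. Hsph1, a co-chaperone, had 125, 212, 294 and 328 CPM, and Dnajb1, an Hsp40, had 162, 200.1, 340 and 258 CPM. In TAA against control 2.73% of all measured genes were higher and 2.54% lower. The dissociation and immediate early list had 0 higher and 4 lower members of 24 there (Egr2, Egr3, Hspa1a and Hspa1b). Enzymatic dissociation is known to induce these genes, and dissociation cannot be told apart from treatment here. The summed list stood at 13572, 15655, 18901 and 16773 CPM in cDC1, and at 9015, 11007, 12718 and 13517 CPM in B cells of the same libraries.

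Tnfaip3, the NF-kB inhibitor A20, led the lower genes in TAA+C30 against TAA at 109, 39.1, 13.4 and 76.9 CPM, with a log2 ratio of -2.34, or -1.73 without mixed barcodes. In that comparison 3.7% of all measured genes were lower. Of the maturation list 5 of 24 measured were lower, with a median of -0.50 (3 of 23, and -0.34, without mixed barcodes). They included Serpinb6b, a serine protease inhibitor, at 102, 50.6, 31.8 and 74.4 CPM, and Apol7c, an apolipoprotein L family gene, at 37.9 CPM in 5 TAA cells, 4.60, 0 and 2.48 CPM. The other named lower genes, Dnase1l3 and Degs1, rested on mixed barcodes. Their log2 ratios were -1.65 and -1.52, and -0.59 and 0.12 without them.

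In TAA+C7.5 against TAA, 53 of 7437 measured genes (0.713%) were higher and 300 (4.03%) lower, and without mixed barcodes 57 and 77, so most of the lower genes rested on them. The 8 highest were Rnaset2a, Rnaset2b, Snx22, Hspa1b, Hspa1a, Ube2j1, Rilpl2 and Mycl. Rnaset2a and Rnaset2b, lysosomal ribonucleases, had 25.5, 147, 75.8 and 27.3 CPM and 33.1, 117, 53.8 and 27.3 CPM. They are near-identical copies, and how the counting split their reads is uncertain. Both were highest in TAA+C7.5, next in TAA+C30, and low in TAA and control alike. Rnaset2a was 5.78 times TAA in TAA+C7.5 (3.796 to 8.91) and 2.97 times in TAA+C30 (1.95 to 4.60). Snx22, a sorting nexin of the identity list, had 39.9, 104, 86.8 and 69.5 CPM. Mycl, a Myc family factor that cDC1 use, had 74.4, 156, 128 and 109 CPM, and lay just inside 2-fold. Ube2j1, a ubiquitin-conjugating enzyme of the endoplasmic reticulum, had 44.8, 108, 47.7 and 54.6 CPM and was high in TAA+C7.5 alone.

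Of the 8 lowest in TAA+C7.5 against TAA, Hist1h2ae, Hist1h2ap and Pclaf, a Pcna-binding factor of replicating cells, kept log2 ratios of -2.15, -1.61 and -1.57 without mixed barcodes. Nrp1, Dnase1l3, Degs1, Irf1 and Mt1 had ratios between -1.61 and -1.44 with them and between -0.56 and 0.04 without. In TAA the cDC1 level of these 5 genes was 10.6% to 17.6% of that in endothelial barcodes. The endothelial markers given above were high in TAA cDC1 and near 0 in both celecoxib libraries. Mixed barcodes were chosen in part by the endothelial rule, and a part of endothelial RNA in these 5 ratios was not tested. Of 23 cell cycle genes 1 was lower, with a median of -0.48, and of 24 interferon response genes 5 were lower and 0 higher, with a median of -0.37 (2 and 0, and -0.28, without mixed barcodes). In TAA+C30 against TAA the interferon list had 3 lower and 0 higher of 23, with a median of -0.30, and 0 either way without mixed barcodes. Over all measured genes 0.713% were higher and 4.03% lower at 7.5 mg/kg, and 0.596% and 3.7% at 30 mg/kg. The comparisons of the 2 doses share the TAA library.

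**Figure D5:**
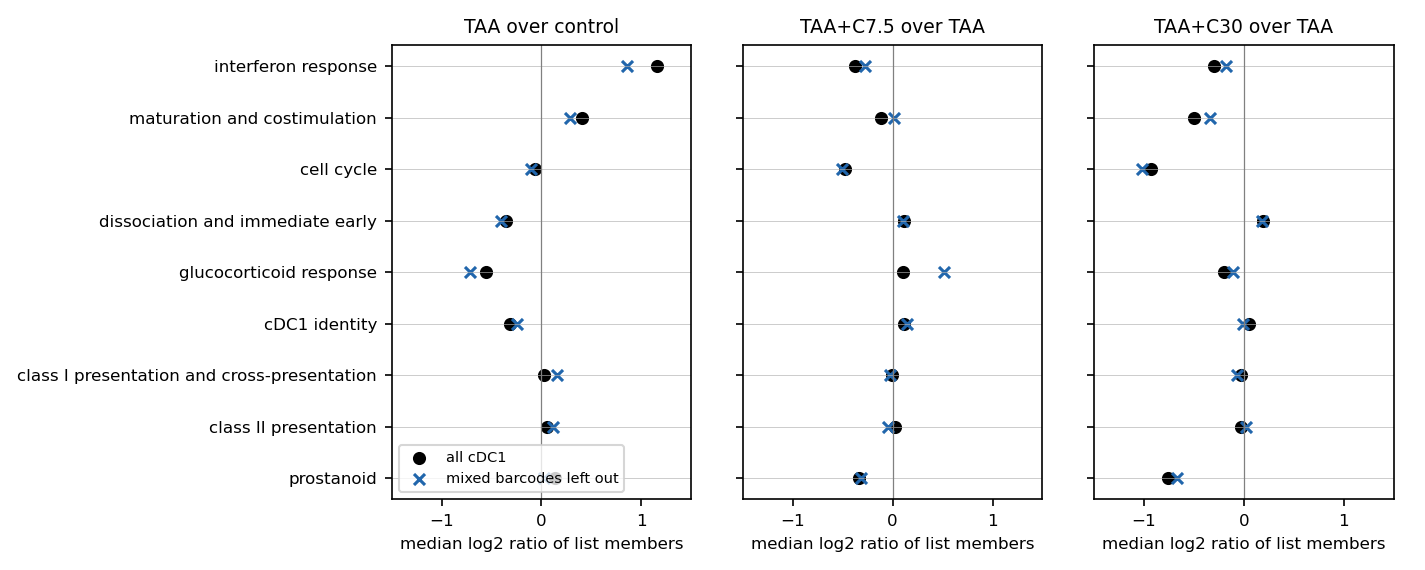
Median log2 ratio (horizontal axes) of the measured members of 9 gene lists in cDC1 for TAA over control, TAA+C7.5 over TAA and TAA+C30 over TAA. Points are all cDC1 and crosses leave out mixed barcodes. The interferon response stands at 1.16 (0.85 without mixed barcodes) in TAA over control, and the cell cycle list at -0.93 (-1.02) in TAA+C30 over TAA.

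Genes of prostanoid and leukotriene metabolism were sparse. Shares over all measured genes were 2.73% higher and 2.54% lower in TAA against control. They were 0.713% and 4.03% at 7.5 mg/kg, and 0.596% and 3.7% at 30 mg/kg, each against TAA. Of 21 listed, 10 were measured in TAA against control (1 higher, 1 lower) and 9 in each celecoxib comparison (0 higher, 2 lower in each). The higher gene was Hpgd, which breaks down prostaglandins, and the lower gene was Ptgs2. In the control 2 cells held Ptgs2, and 1 of them held 82.35% of its 17 UMIs. The lower genes with celecoxib were Hpgd and the prostaglandin transporter Slco2a1 at both doses. Each came from 3 cells in TAA, and neither passed 2-fold without mixed barcodes. Ptgs1, the constitutive cyclooxygenase, had 11.02, 0, 1.22 and 29.8 CPM, and 0, 0, 1.27 and 11.1 CPM without mixed barcodes. Alox5ap, which presents arachidonic acid to 5-lipoxygenase, was the most counted member at 619, 796, 824 and 556 CPM, and the prostaglandin E2 receptor Ptger4 had 90.9, 108, 120 and 127 CPM. Alox5ap was higher with celecoxib than with TAA alone, 1.29 times at 7.5 mg/kg (1.13 to 1.46) and 1.33 times at 30 mg/kg (1.20 to 1.47), which is inside 2-fold. The highest and lowest counting intervals of Ptger4 overlap.

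The remaining lists are given as members higher and lower in TAA against control, TAA+C7.5 against TAA and TAA+C30 against TAA, in that order, where 2.73% and 2.54%, 0.713% and 4.03%, and 0.596% and 3.7% of all measured genes were higher and lower. Apoptotic cell uptake and pattern receptors had 0 and 1 of 14, 0 and 3 of 13, and 0 and 3 of 14. Without mixed barcodes they had 0 and 0 of 10, 0 and 1 of 10, and 0 and 1 of 11. Adhesion and migration genes had 0 and 2 of 15, 0 and 0 of 13, and 1 and 0 of 15, and without mixed barcodes 0 and 1 of 14, 0 and 0 of 13, and 1 and 0 of 14. Itgal, the alpha chain of LFA-1, stood at 68.9 CPM in TAA and 166 CPM in the control, with a log2 ratio of -1.16, or -0.89 without mixed barcodes. Oxidative stress genes had 2 and 0, 0 and 3, and 0 and 2 of 16, and without mixed barcodes 1 and 0, 0 and 0, and 1 and 1 of 15. Sqstm1, an autophagy receptor, was higher in TAA at 100.6 CPM, against 37.2 CPM in the control, also without mixed barcodes. Lipid and scar macrophage genes had 3 and 0, 0 and 3, and 0 and 2 of 10, with medians of 0.43, -0.47 and -0.60. Without mixed barcodes they had 2 and 0 of 9, 0 and 1 of 8, and 0 and 0 of 9, with medians of 0.12, -0.06 and 0.0771, so the last changed sign.

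The ligand of Xcr1 was found in NK cells. Xcl1 stood at 2122 CPM (2009 to 2239) in NK cells of TAA, 1262 in TAA+C7.5, 2242 in TAA+C30 and 797 in the control, and at 289, 253, 246 and 244 CPM in T cells. In B cells, the background, it stood at 3.45, 8.96, 0.938 and 0.319 CPM. NK cells thus held more in TAA and TAA+C30 than in TAA+C7.5 and control, while T cells differed little. Flt3l, the growth factor of dendritic cells, stood at 32.1, 23.5, 40.5 and 62.6 CPM in NK cells, with its receptor Flt3 at 221, 290, 242 and 313 CPM in cDC1. Ifng stood at 210, 578, 379 and 367 CPM in NK cells.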

How the data were processed

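Hepatic nonparenchymal cells were run on a droplet platform with 3′ chemistry. Each deposited matrix gives, for every barcode and gene, a whole UMI count that the authors obtained with Cell Ranger 3.1.0 on build mm10, per the submitters' processing notes. Filters upstream of the deposit are not given in the sources used here. The dense text tables were not used. Barcodes with at least 200 genes and at most 20% mitochondrial UMIs were kept, cDC1 and other classes were taken by transcript rules, and counts were summed per library and class and divided by their total (CPM). Genes with at least 20 UMIs in a pair of libraries were compared as log2 ratios with 10 CPM added. Named genes were the 8 highest and 8 lowest per comparison that reached 100 CPM, 10 UMIs and 10% of cDC1 in whichever library was higher. Left out were mitochondrial, ribosomal protein, haemoglobin, immunoglobulin, Y chromosome, hepatocyte and selection genes, Xist and Tsix, gene models, and genes under 10% of their level in another class. Up to 12 genes were named beside cDC2, and from each list up to 4, or any of the identity, prostanoid, maturation and chemokine lists. Other genes were named after their values were seen. The members and lists were chosen with earlier results of these data known. The level of 1 member of the interferon list is not reported here. Doublets were not removed. Scrublet called 81, 199, 131 and 129 kept barcodes in TAA, TAA+C7.5, TAA+C30 and control, of which 0, 0, 1 and 0 were cDC1. Alternatives were other cuts on the marker, mitochondrial and gene counts, doublet removal, other added CPM and UMI minimums, another scaling and equal weight per cell. Leaving out mixed barcodes, and a minimum of 4 Xcr1 and Clec9a UMIs, were chosen after seeing the data. The comparison steps were tested on simulated data. Python 3.11.15, NumPy 2.4.6, SciPy 1.17.1, pandas 2.3.3, Scanpy 1.11.5 and matplotlib 3.10.9 were used.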

Additional observations from a re-analysis of the deposited data

How the results depend on the processing

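The precision is limited by the 27 cDC1 of the control and by 1 mouse per group, and counting intervals leave out the spread between mice. No paired analysis was possible because each group has 1 sample. Of the summary values, 149 stayed within their interval or within 1.5 times and 37 moved. Of list medians 504 stayed, 16 moved and 3 reversed. Of named gene ratios 43 dropped from past 2-fold to inside it, 4 reversed and 529 did neither. A ratio that began inside 2-fold and moved past it is among the 529. The cause was not tested for any of them.

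Without a class II minimum, cDC1 shares in TAA were 1.06 times the control of kept barcodes, 0.550 times outside the endothelial, hepatocyte and cholangiocyte rules, and 0.478 times of dendritic cells. With at least 4 Xcr1 and Clec9a UMIs, the shares of TAA+C7.5 and TAA+C30 were 0.487 and 0.712 times TAA of kept barcodes, and 0.459 and 0.654 times outside those rules. Counts of genes at least 2-fold higher and lower were as follows with 50 CPM added: 23 and 30 in TAA against control, 12 and 44 in TAA+C7.5 against TAA, 10 and 47 in TAA+C30 against TAA. With 1 CPM added they were 496 and 461, 194 and 588, and 150 and 658. With at least 50 UMIs they were 121 and 95, 28 and 145, and 27 and 154. With a minimum of 1, 3 and 4 Xcr1 and Clec9a UMIs, 539, 125 and 168 genes were lower in TAA+C7.5 against TAA, and 77 with mixed barcodes left out. In TAA+C30 against TAA, 91 were lower with a minimum of 3, 107 with 4 and 94 with mixed barcodes left out. With equal weight per cell, 135 genes were higher in TAA+C7.5 and 194 lower in TAA+C30, against TAA. Against cDC2, 38 genes were higher and 54 lower with 50 CPM added, and 44 lower with a minimum of 1 UMI.

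Reversed medians were 0.29 for the hepatocyte list in TAA against control with a minimum of 1 UMI, and 0.0253 (a minimum of 3) and 0.0771 (mixed barcodes left out) for lipid and scar macrophage genes in TAA+C30 against TAA. The Degs1 log2 ratio reversed to 0.0429 in TAA+C7.5 against TAA with mixed barcodes left out. In TAA+C30 against TAA it reversed to 0.118 with a minimum of 3, 0.115 with mixed barcodes left out and 0.0228 with a minimum of 4.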

Other observations

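Clec9a was also counted outside dendritic cells. In barcodes that met the endothelial rule it stood at 10.9 CPM (7.65 to 15.0) in TAA, 35.3 (18.2 to 61.6) in TAA+C7.5, 12.3 (1.49 to 44.5) in TAA+C30 and 26.8 (24.2 to 29.7) in the control. A Clec9a UMI was found in 11.3%, 14.5%, 9.52% and 10.0% of these barcodes, and in 0.358%, 4%, 5.26% and 2.35% after thinning to 1000 UMIs. In the 2933 endothelial barcodes of the control 369 Clec9a UMIs and 2 Xcr1 UMIs were counted. In pDC, which are known to carry some Clec9a in mice, it stood at 150, 126, 146 and 121 CPM in the 4 libraries.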
